A study of Mus musculus with 32 samples.

Results

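Mapt, the mouse tau gene, and Prnp, the mouse prion protein gene, were followed in microglia of rTg4510 and wild-type mice. They were chosen by name, as the mouse genes whose sequence or counterpart the rTg4510 transgene holds: it carries human tau with the P301L mutation together with mouse prion gene sequence. They are 2 of the 18588 genes in the deposited table. Microglia had been isolated with CD11b MicroBeads from female rTg4510 mice, labelled Transgenic, and from female wild-type (WT) mice, labelled 129/FVB F1, at 2, 4, 6 and 8 months of age. In rTg4510 mice the tetracycline transactivator driven by the CaMKIIα promoter switches on the tau transgene in forebrain neurons, so the transgene is not directed to microglia. The WT littermates carried no transgene, so effects of the transactivator, of the insertions and of tau itself cannot be told apart here. The labels name no treatment. Each library was made from pooled forebrains of 8 to 10 animals. The study kept 28 of 32 libraries, which gave 4 libraries of each genotype at 2 and 6 months and 3 at 4 and 8 months.

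Tau binds and stabilises microtubules and is most abundant in the axons of neurons. In tauopathies it becomes hyperphosphorylated and forms tangles. Prion protein is a copper-binding protein held on the outer cell surface by a glycolipid anchor, made by neurons and also by glia and many other cells. Its misfolded form causes prion diseases. Microglia, the resident macrophages of the brain, take up tau released by neurons but are known as cells with little tau transcript of their own.

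In RefSeq for GRCm38 Mapt (Entrez 17762) lies on chr11:104229409-104332090 and Prnp (Entrez 19122) on chr2:131909928-131938436, both on the plus strand. In the GENCODE transcript Prnp-201, which has 3 exons, the whole coding sequence of 762 bases lies in exon 3, at chr2:131936430-131937191. The deposited values are 1 per gene and hold no reads. How far reads of human tau entered the Mapt row, or reads of the prion sequence in the transgene entered the Prnp row, was not tested, and in both rows transcripts of the mouse gene and of the transgene cannot be told apart.

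Values are log2 signals, a gene-level summary of exon counts that the authors set to the same median, 5.63, in every library. The number of reads behind a value is unknown. Over the 28 kept libraries Mapt ranged from 3.51 to 6.77 with a median of 4.73, and between 8.51% and 74.1% of genes lay below it in a library. Prnp ranged from 6.51 to 9.76 with a median of 7.84, and between 68.5% and 96.1% of genes lay below it. Mapt thus stood in the lower part of the table in most libraries and Prnp in the upper part. The label of the cells was checked against 10 microglia markers, all in the table, whose summed linear signal had log2 values of 14.47 to 15.26. The same sum was 8.06 to 9.82 for 19 neuron markers, and 11 other neuron markers, among them Rbfox3, Tubb3 and Slc17a7, were not in the table. One library stood apart in markers of other cells: WT 8 months replicate 1 had the highest sums of neuron markers (9.82), of oligodendrocyte lineage markers (11.45) and of astrocyte markers (12.01) of the 28.

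The mean Mapt signal of rTg4510 libraries lay below that of WT libraries at each age, but the difference did not pass the test at any single age and the groups always overlapped. At 2 months the WT libraries had Mapt signals of 5.54, 4.70, 5.26 and 4.61 and the rTg4510 libraries 4.47, 4.68, 4.70 and 4.32. At 4 months the WT values were 5.23, 4.14 and 5.60, and those of rTg4510 were 4.88, 3.91 and 4.30. The groups overlapped at both ages. At 6 months the WT libraries gave 4.80, 4.20, 4.77 and 5.14 and the rTg4510 libraries 4.04, 4.43, 4.44 and 4.91. At 8 months the WT libraries gave 6.77, 5.33 and 5.07 and the rTg4510 libraries 5.41, 5.22 and 3.51. The groups overlapped again, with WT replicate 1 the highest of all libraries and rTg4510 replicate 3 the lowest.

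The difference in Mapt, rTg4510 minus WT, was -0.49 ± 0.42 (SE, n = 4 and 4, FDR = 0.66) at 2 months and -0.63 ± 0.48 (n = 3 and 3, FDR = 0.397) at 4 months in a linear model over the 8 groups (limma, Benjamini-Hochberg over all genes). It was -0.27 ± 0.42 (FDR = 0.653) at 6 months and -1.01 ± 0.48 (FDR = 0.141) at 8 months in the same limma fit. A gene was called at an FDR under 0.05 and a change over 1.5 fold. Mapt was called at 0 of the 4 ages, and at 0 with moderated variances. At 1 of the 4 (8 months) its unadjusted limma p was under 0.05, as it was for 35.4% of all genes at that age. Of all genes, 0.403% were called lower at 2 months, 4.33% at 4 months, 8.54% at 6 months and 5.37% at 8 months. Libraries with the same replicate number deviated together at 8 months. With the replicate number as a block at every age, the 8-month difference in Mapt was called, at the same -1.01 with an SE of 0.317 (limma, FDR = 0.0401). That SE came from a variance shared by all ages, also 2 and 4 months, where the numbers were not taken to pair libraries. The 8-month differences of same-numbered libraries were themselves uneven, at -1.36, -0.11 and -1.56. Without WT 8 months replicate 1 the 8-month difference fell in size to -0.49 (limma, FDR = 0.538), and without rTg4510 8 months replicate 3 to -0.41.

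Prnp signal was higher in rTg4510 than in WT microglia at 6 months, by 2.28 fold. At 4 months the groups did not overlap either, but the difference missed the FDR threshold. With all 32 libraries the 4-month groups overlapped and the difference was 0.29. At 2 months the WT libraries had Prnp signals of 7.85, 7.22, 7.32 and 7.07 and the rTg4510 libraries 7.34, 8.23, 7.83 and 6.99, which overlapped. At 4 months the WT values of 6.98, 7.16 and 7.47 all lay below the rTg4510 values of 8.31, 8.61 and 8.08. At 6 months the WT values of 7.11, 6.51, 7.07 and 7.01 lay below those of rTg4510, which were 8.18, 8.24, 7.97 and 8.09. The genotypes were thus apart at both of these ages. At 8 months WT libraries gave 9.76, 8.40 and 7.18 and rTg4510 libraries 9.01, 8.62 and 8.56. The WT libraries of 8 months spread more widely than any other group (SD 1.29) and enclosed all 3 rTg4510 values.

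The difference in Prnp, rTg4510 minus WT, was 0.23 ± 0.36 (SE, n = 4 and 4, FDR = 0.846) at 2 months, and 1.13 ± 0.42 (n = 3 and 3, FDR = 0.0563) at 4 months in the limma fit. At 6 months it was 1.19 ± 0.36 (n = 4 and 4, 2.28 fold, limma FDR = 0.014) and was called. At 8 months it was 0.28 ± 0.42 (n = 3 and 3, limma FDR = 0.674). Prnp was thus called higher at 1 of the 4 ages, where 1.58% (2 months), 9.47% (4 months), 11.3% (6 months) and 10.5% (8 months) of all genes were called higher. Groups without overlap and with rTg4510 higher were seen in 19.1% of all genes at 4 months and 18.2% at 6 months, so that this pattern was common in the table. The 4-month difference was called with moderated variances, or with either WT 8 months replicate 1 or replicate 3 left out, 2 libraries that enter only through the shared variance. The 8-month difference rested on the WT libraries: without replicate 1 it was 0.94 (limma, FDR = 0.0532) and without replicate 3 it was -0.35 (limma, FDR = 0.541). With all 32 libraries the 6-month difference was the same size and was no longer called (limma, FDR = 0.176), because the 4 excluded libraries enter the shared variance.

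**Figure D1:**
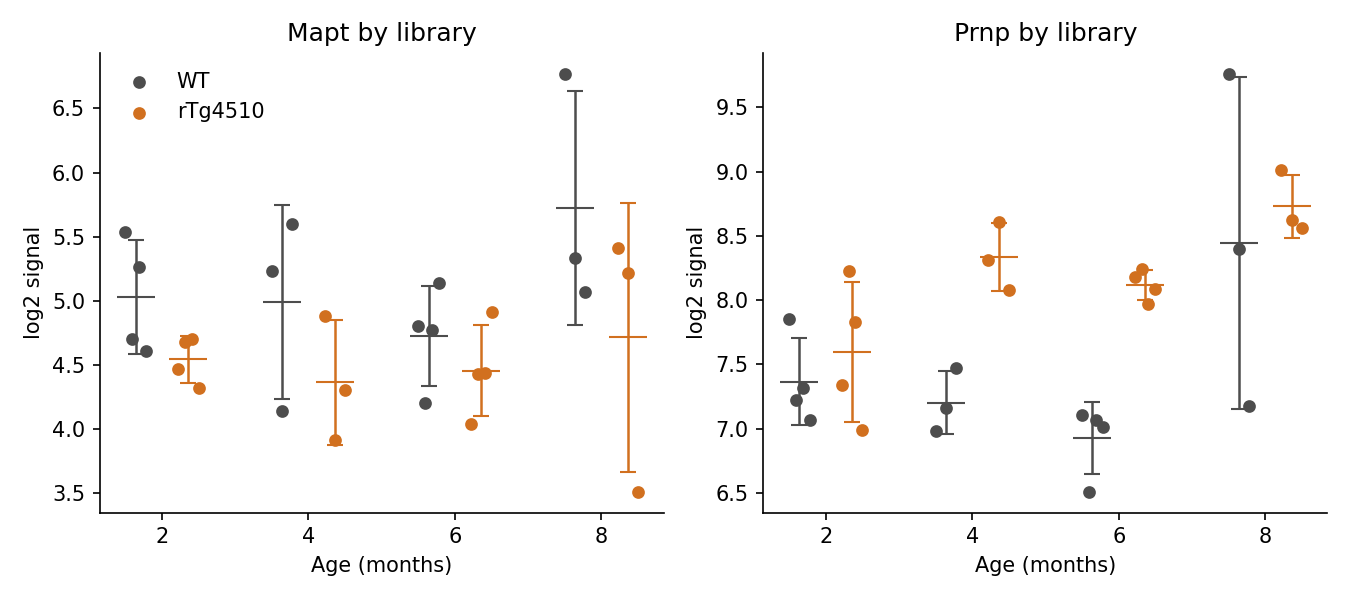
Log2 signal (y axis) of Mapt, left, and Prnp, right, in each of the 28 kept libraries at each age in months (x axis). Points are libraries, horizontal lines group means and bars 1 SD. For Mapt the genotypes overlap at every age, and for Prnp the rTg4510 libraries at 4 and 6 months (7.97 to 8.61) all lie above the WT libraries of those ages (6.51 to 7.47).

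Averaged over the 4 ages, a contrast that was added after the values had been seen, both genes were called, in opposite directions. Mapt was lower in rTg4510 by 0.60 ± 0.23 on the log2 scale (SE, 1.51 fold, limma FDR = 0.0357) and Prnp was higher by 0.71 ± 0.20 (1.64 fold, limma FDR = 0.00518). Of all genes, 7.03% were called lower and 9.51% higher in this contrast. Replicate numbers were taken to pair libraries only at 6 and 8 months. At these ages Mapt was lower in rTg4510 in 3 of 4 and 3 of 3 pairs, and Prnp higher in 4 of 4 and 2 of 3. The share of all genes with such counts was not computed. The call for Mapt lay close to both thresholds. It was lost when any 1 of 11 libraries was left out, namely WT 2 months replicates 1 and 3, WT 4 months replicates 1 and 4, WT 6 months replicate 4, WT 8 months replicate 1, rTg4510 2 months replicate 4, rTg4510 4 months replicates 2 and 4, rTg4510 6 months replicate 1 and rTg4510 8 months replicate 3, with differences of -0.70 to -0.45 over all 28 such fits. It was also lost with quantile normalisation, where the difference of -0.58 was under the fold threshold. The call for Prnp was lost only without WT 8 months replicate 3, where the difference of 0.55 was under the fold threshold, and with all 32 libraries.

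**Figure D2:**
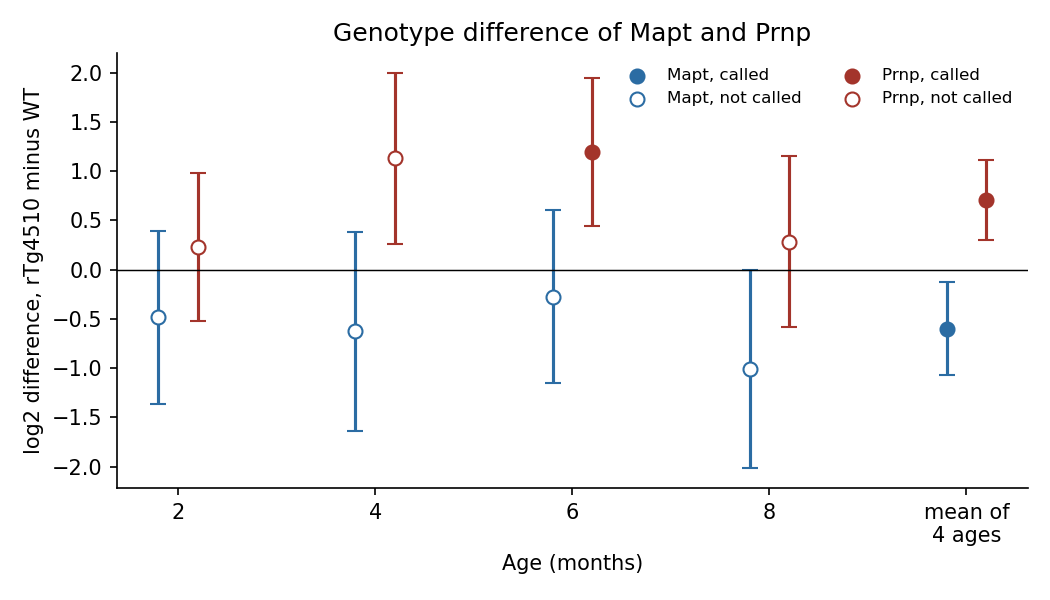
Difference in log2 signal, rTg4510 minus WT (y axis), of Mapt and Prnp at each age in months and for the mean of the 4 ages (x axis). Bars are 95% confidence intervals of the limma fit, and filled points were called at an FDR under 0.05 and over 1.5 fold. Mapt lies below 0 at every age, from -1.01 to -0.27, and Prnp above 0, from 0.23 to 1.19.

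Whether the genotype difference changed with age was tested with the interaction contrasts of the same model. For Mapt the difference moved by -0.14 ± 0.64 from 2 to 4 months, by 0.35 ± 0.64 from 4 to 6 months, by -0.74 ± 0.64 from 6 to 8 months and by -0.52 ± 0.64 from 2 to 8 months. For Prnp it moved by 0.90 ± 0.55 from 2 to 4 months, by 0.06 ± 0.55 from 4 to 6 months, by -0.91 ± 0.55 from 6 to 8 months and by 0.05 ± 0.55 from 2 to 8 months. None of the 4 contrasts of either gene passed an FDR of 0.05 in limma, and 0 had an unadjusted p under 0.05. The shares of all genes called were 7.33% from 2 to 4 months, 0.172% from 4 to 6 months, 0% from 6 to 8 months and 9.76% from 2 to 8 months. The Prnp difference was therefore not shown to change over these 4 steps, and 6 against 2 months and 8 against 4 months were not tested.

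With age, the mean Prnp signal was highest at 8 months in both genotypes. In order of mean log2 signal the Prnp groups ran from rTg4510 at 8 months (8.73 ± 0.24, SD), WT at 8 months (8.45 ± 1.29), rTg4510 at 4 months (8.33 ± 0.26) and 6 months (8.12 ± 0.12) through rTg4510 (7.60 ± 0.55) and WT (7.36 ± 0.34) at 2 months to WT at 4 months (7.21 ± 0.25) and 6 months (6.93 ± 0.28). The Mapt groups ran from WT at 8 months (5.72 ± 0.92), 2 months (5.03 ± 0.45), 4 months (4.99 ± 0.76) and 6 months (4.73 ± 0.39) to rTg4510 at 8 months (4.71 ± 1.05), 2 months (4.54 ± 0.18), 6 months (4.46 ± 0.36) and 4 months (4.36 ± 0.49). Every group overlapped in its libraries with the next group in the order, for both genes. In rTg4510 Prnp rose by 1.13 ± 0.39 from 2 to 8 months (SE, 2.19 fold, limma FDR = 0.0426), the only one of the 16 age contrasts of the 2 genes that was called. That call was lost without any 1 of 8 libraries (limma, FDR up to 0.149), which were rTg4510 2 months replicates 1, 3 and 4, the 3 rTg4510 8 months libraries, WT 2 months replicate 3 and WT 4 months replicate 2, and also with all 32 libraries and with quantile normalisation (limma, FDR = 0.0619). In WT the same change was 1.08 ± 0.39 (limma, FDR = 0.124), and Prnp was higher by 1.52 ± 0.39 at 8 than at 6 months (limma, FDR = 0.249). Without WT 8 months replicate 3 both WT changes were called, at 1.71 and 2.15, and without replicate 1 they were 0.43 and 0.86. Mapt differed between 8 and 6 months by 0.99 ± 0.45 in WT (limma, FDR = 0.48) and by 0.26 ± 0.45 in rTg4510. Of all genes, 6.39%, 0.818%, 0.00538% and 10.5% were called in rTg4510 from 2 to 4, 4 to 6, 6 to 8 and 2 to 8 months, and 0.0484%, 0.00538%, 0% and 1.27% in WT. At an unadjusted p under 0.05, 1 of 4 Mapt contrasts and 2 of 4 Prnp contrasts in WT passed. These were 6 to 8 months for both genes, where 9.78% of all genes passed, and 2 to 8 months for Prnp, where 19.2% did.

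Prnp minus Mapt within a library compares the genotype difference of the 2 genes in the same RNA. At 2 months this log2 value was 2.34 ± 0.20 (SD, n = 4) in WT and 3.06 ± 0.38 (n = 4) in rTg4510, and at 6 months 2.20 ± 0.22 and 3.66 ± 0.41. All rTg4510 libraries lay above all WT libraries at both ages, and the difference of 0.72 at 2 months and of 1.47 at 6 months had p = 0.0286 each in a two-sided exact permutation test, the smallest p that 4 against 4 allows. At 4 months the values were 2.22 ± 0.70 and 3.97 ± 0.65 (n = 3 each), and at 8 months 2.72 ± 0.53 and 4.02 ± 0.90. The groups were again apart, by 1.75 and 1.29, with an exact permutation p = 0.1 each, the smallest that 3 against 3 allows. Same-numbered libraries deviated together at 6 and 8 months. With sign flips of same-numbered differences the exact p was 0.125 at 6 months, the smallest that 4 pairs allow. With 1 library left out the 8-month difference ran from 0.78 to 1.60. The p-values of the 4 ages were not adjusted, and the share of other gene pairs without overlap was not computed. Single genes without overlap were 7.49% (rTg4510 higher) and 3.51% (lower) of all genes at 2 months, and 19.1% and 17.5% at 4 months. They were 18.2% and 14.6% at 6 months and 21.2% and 15.5% at 8 months, so that groups apart were common in the table.

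**Figure D3:**
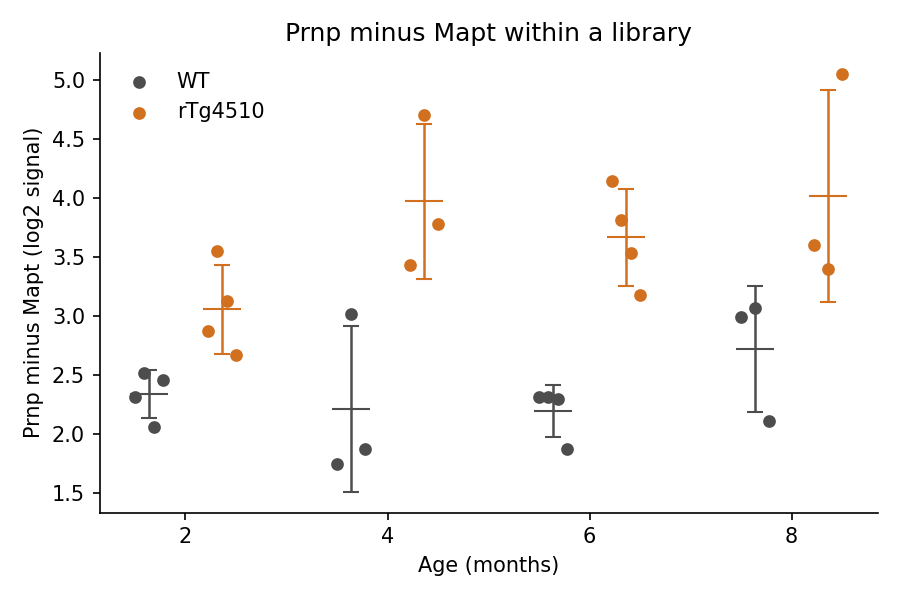
Prnp log2 signal minus Mapt log2 signal in the same library (y axis) by age in months (x axis). Points are libraries, horizontal lines group means and bars 1 SD. At each age every rTg4510 library lies above every WT library, and the difference of the means is 0.72, 1.75, 1.47 and 1.29 at 2, 4, 6 and 8 months.

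Neurons are the cells in which the transgene is expressed, and their RNA in the libraries was read from 19 neuron markers. Only 5 of the 19 had a mean signal above the 25th percentile of all genes (4.53), so their mean rests largely on low signals. The difference in their mean log2 signal, rTg4510 minus WT, was -0.16, -0.58, -0.57 and -0.50 at 2, 4, 6 and 8 months, and it passed the test at 6 months. The mean was then 4.01 ± 0.28 (SD, n = 4) in WT and 3.44 ± 0.16 (n = 4) in rTg4510, with a two-sided exact permutation p = 0.0286. That p was 0.514 at 2 months, 0.1 at 4 months and 0.2 at 8 months by the same exact test, and with sign flips of same-numbered libraries it was 0.125 at 6 months. With quantile normalisation the 6-month difference was -0.32 and no longer passed (exact permutation p = 0.0571), and with 1 library left out the 8-month difference ran from -0.74 to -0.14, the smallest without WT 8 months replicate 1. Fewer neuronal remains and less RNA per cell cannot be told apart in these bulk libraries. In the limma fit 0 of 19 markers were called higher and 0 lower at 2 months, 1 and 1 at 4 months, 1 and 5 at 6 months and 1 and 0 at 8 months, with median differences of -0.23, -0.51, -0.71 and -0.63 beside medians over all genes of 0.01, -0.04, -0.035 and -0.01. The shares of all genes called at 6 months were 11.3% higher and 8.54% lower, and at 4 months 9.47% and 4.33%. The member called higher at 4, 6 and 8 months was Eno2, a neuronal enolase, and the 5 called lower at 6 months were Snap25 (-1.42), a synaptic fusion protein, Gria2 (-1.59), a glutamate receptor subunit, Chn1 (-1.70), Meg3 (-1.44) and Syn1 (-0.71).

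Markers of other cells were read too. The oligodendrocyte lineage sum was 8.92 to 11.45 in WT and 8.61 to 10.42 in rTg4510 at 8 months, against 8.55 to 9.01 and 8.05 to 8.50 at 6 months. The microglia marker sum was 15.06 to 15.21 in WT and 14.68 to 14.88 in rTg4510 at 6 months. Of 10 microglia markers 1, 2, 3 and 3 were called lower at the 4 ages, led by Sall1 (-0.86 at 6 months), a transcription factor of microglia, and Tmem119 (-0.78). Of 10 astrocyte markers 1 was called higher at 6 and at 8 months, Gfap (1.52 and 1.80), and 2 and 3 lower, Aqp4 and Slc1a3 at both ages and Slc1a2 at 8 months. Of 8 endothelial markers Flt1 was higher and Pecam1 lower from 4 months on, with Ly6c1 and Vwf also lower at 6 months. Of 13 oligodendrocyte lineage markers Cspg4 was higher from 4 months on and Pdgfra lower at 6 months. Lyve1 was lower at 6 months among 4 border macrophage markers, and of 6 neutrophil markers 5 were lower at 6 months and 4 at 8 months, S100a8, S100a9, Camp and Ngp at both. For comparison, 0.403%, 4.33%, 8.54% and 5.37% of all genes were called lower at 2, 4, 6 and 8 months, and 1.58%, 9.47%, 11.3% and 10.5% higher. In lists this short a single called member says little about a cell type. The part of these cell types in the Mapt and Prnp differences was not tested.

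Over the 14 WT libraries Mapt and Prnp varied together, with r = 0.844 (adjusted permutation p = 0.00288) and rho = 0.67 (adjusted permutation p = 0.0474). Without the 2 libraries farthest from the Mapt median, r was 0.688 (unadjusted permutation p = 0.0123). With all 32 libraries r was 0.719 (adjusted permutation p = 0.00846), while rho was 0.424 and did not pass (adjusted permutation p = 0.211). Over the 14 rTg4510 libraries r was 0.197 and rho 0.178 (adjusted permutation p = 0.5 and 0.545). The neuron marker mean followed Prnp in WT with r = 0.846 and rho = 0.64 (adjusted permutation p = 0.00939 and 0.0474), and Mapt in WT with r = 0.685 and rho = 0.459 (adjusted permutation p = 0.0341 and 0.204). Both relations rested on WT 8 months replicate 1 and WT 2 months replicate 1, without which r was 0.394 and -0.0248. With all 32 libraries the rho of neuron markers and Prnp in WT was 0.612 and did not pass (adjusted permutation p = 0.0847). In rTg4510 the neuron marker mean gave r = 0.338 with Mapt and r = 0.206 with Prnp (rho = 0.358 and 0.297), neither past the threshold (adjusted permutation p = 0.354 and 0.5 for r, 0.311 and 0.365 for rho). These 6 relations were adjusted together.

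Taken as deviations from the mean of each age, which removes the age groups, the WT relation of Mapt and Prnp remained at r = 0.769 (adjusted permutation p = 0.00213). Prnp and the neuron marker mean then gave r = 0.811 in WT and also r = 0.68 in rTg4510 (adjusted permutation p = 0.00174 and 0.0136). Without WT 8 months replicate 1 and WT 2 months replicate 1 the WT r was 0.586 and did not pass (unadjusted permutation p = 0.0693). Without rTg4510 2 months replicate 2 and rTg4510 4 months replicate 1 the rTg4510 r was 0.585 (unadjusted permutation p = 0.0452). For the rTg4510 relation rho was 0.56 and did not pass (adjusted permutation p = 0.0806). The permutations treated the deviations as interchangeable, although each is tied to the mean of its age and the ages spread unequally. Their p-values may therefore be too small. Whether the correlations differed between the genotypes was not tested.

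**Figure D4:**
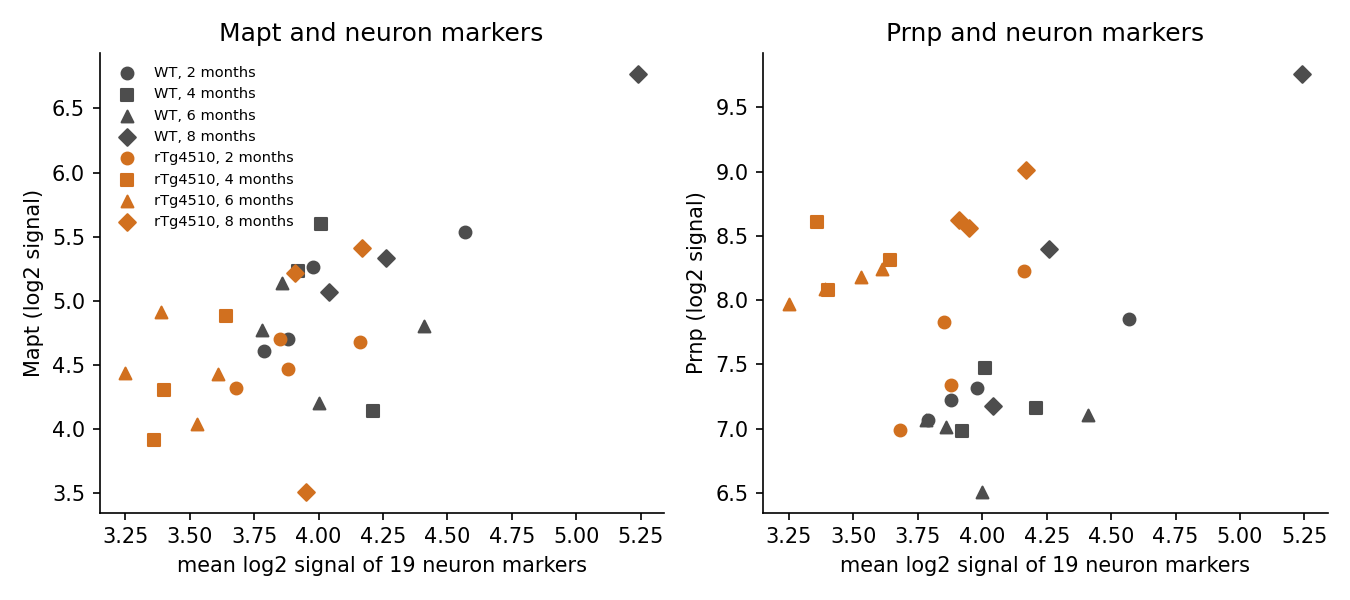
Log2 signal of Mapt (left) and Prnp (right) on the y axis against the mean log2 signal of 19 neuron markers on the x axis, 1 point per kept library, with colour for genotype and shape for age. WT 8 months replicate 1 lies alone at the upper right of both plots (5.24 on the x axis). The rTg4510 libraries of 4 and 6 months lie to the left of all WT libraries, with Prnp of 7.97 to 8.61.

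Among the genes whose signal over all 28 libraries was most like that of Mapt were Pcdh10 (r = 0.797), Cldn11 (0.795), Scg3 (0.784) and Shroom2 (0.782). Cldn11 codes for a tight junction protein of myelin and belongs to the oligodendrocyte lineage markers above. The lowest correlations were with Vwa5a (-0.76), Acox3 (-0.733) and Heatr5a (-0.731). Prnp was most like F3 (r = 0.871), which codes for tissue factor, Csrp1 (0.855), Clip3 (0.838), Fat1 (0.833) and Syt11 (0.815), and least like Fmnl3 (-0.85), Cyth4 (-0.843) and Lgmn (-0.825), the last a lysosomal protease. Mapt and Prnp themselves had r = 0.277. These values are descriptions over libraries that share genotype and age groups. WT 8 months replicate 1, with the highest Mapt (6.77) and Prnp (9.76) of the 28, was among them. The correlations were not repeated without it.

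Members of the MAP2/tau family and other large microtubule-associated proteins were read together, and 5 were measured. Map1b, which acts in growing axons, was lower at 6 months by 1.19 ± 0.35 on the log2 scale (SE, limma FDR = 0.012) and was the only one called at any age. At 6 months 8.54% of all genes were called lower and 11.3% higher, so a single call among 5 genes says little. Map2, the closest relative of tau in neurons and also one of the neuron markers, differed by -0.44, -0.51, -0.50 and -0.63 at the 4 ages, and Map1a by -0.08, -0.46, -0.93 and -0.76. Map4, the member of the family that most cells outside the nervous system use, went the other way, by 0.17, 0.43, 0.40 and 0.51, with FDR of 0.096, 5.5e-05, 1.57e-05 and 4.62e-06 in limma, all below 1.5 fold. Map1s differed by -0.40 to -0.08. The medians of the 5 were -0.18, -0.46, -0.50 and -0.37. Both relatives of prion protein that were listed, Prnd and Sprn, were not in the table.

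Among 24 measured kinases and phosphatases that act on tau, 0, 1, 2 and 1 were called higher and 0, 0, 1 and 0 lower at 2, 4, 6 and 8 months, with medians of -0.01 to -0.11. The gene called higher at 4, 6 and 8 months was Fyn, a Src family kinase that phosphorylates tau and also acts downstream of prion protein, by 0.70, 0.95 and 0.90. Mapk3, which codes for ERK1, was higher by 0.63 at 6 months, and Cdk5r1, the activator of Cdk5, was lower by 0.68. Of 18 genes of tau turnover and uptake, 1 was called higher at 4, 6 and 8 months, the calcium-dependent protease gene Capn1 (1.16, 0.92 and 0.77), and 1 lower at 4 months, the chaperone gene Hspa8 (-0.62), with medians of -0.15 to 0.04 over the 4 ages. At 2 months none of these 18 was called. Over all genes 1.58%, 9.47%, 11.3% and 10.5% were called higher at the 4 ages, and 0.403%, 4.33%, 8.54% and 5.37% lower. The shares called in the lists of this paragraph were below these, except at 2 months higher and lower, where none was called, and for turnover genes called lower at 4 months.

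Of 13 measured partners and proteases of prion protein, 1, 2, 3 and 4 were called higher at the 4 ages and 1 lower at 6 months, with medians of 0.09, 0.15, 0.28 and 0.28. Over all genes 1.58%, 9.47%, 11.3% and 10.5% were called higher, and 8.54% lower at 6 months. Rpsa, which codes for a ribosomal protein that also serves as a laminin receptor and binds prion protein, was higher at every age, by 0.64, 1.21, 1.45 and 1.38. Its signal is uncertain because the genome holds many near-identical copies of it. Adam9, a protease reported in the processing of prion protein, was higher by 0.59 at 6 months and by 0.63 at 8 months, and Adam8 by 0.91 at 8 months. Fyn, counted here again, was the other member called higher, and Cav1, the caveolin that couples prion protein to Fyn, was lower by 1.24 at 6 months.

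The genomic neighbours of the 2 genes were read to see whether a stretch of chromosome moved with them. Beside Mapt, Arf2 and Nsf before it and Kansl1 and Cdc27 after it were not called at any age. Arf2 differed by -0.04 to 0.31, Kansl1 by -0.19 to 0.08 and Nsf by 0.19 to 0.42. Nsf was higher with an FDR of 0.000744 at 6 months and 0.00564 at 8 months in limma, under the fold threshold. The more distant lncRNA C130046K22Rik was lower at 4 months (-1.04, limma FDR = 0.0408), and the pseudogene Gm11661 was not called. Beside Prnp, the flanking genes Smox (-0.28 to -0.10) and Rassf2 (-0.29 to 0.17) were not called, nor were Rnf24, Mir103-2 and the pseudogene Gm14052. Slc23a2, a vitamin C transporter gene further downstream, was higher by 0.75 at 6 months and by 0.70 at 8 months (limma FDR = 4e-07 and 9.85e-06), and differed by 0.49 at 4 months, under the fold threshold.

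Genes at the sites where the transgenes of rTg4510 mice were reported to have inserted were read as a check of the genotype labels. Fgf14, at the site of the tau transgene, and Vipr2 were not in the table. The other genes listed belong to a segment reported as lost at the insertion of the transactivator. Wdr60, a dynein component of cilia, was lower in rTg4510 at each age, by 0.73, 0.94, 1.01 and 0.72 on the log2 scale. Esyt2, a tether between the endoplasmic reticulum and the plasma membrane, was lower by 0.93, 0.88, 0.62 and 0.90. Ncapg2, a condensin subunit, differed by -0.63, -0.38, -0.82 and -0.68 and was not called at 4 months (limma FDR = 0.121). Of the 3 genes, 3, 2, 3 and 3 were thus called lower at the 4 ages, beside 0.403%, 4.33%, 8.54% and 5.37% of all genes.

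**Figure D5:**
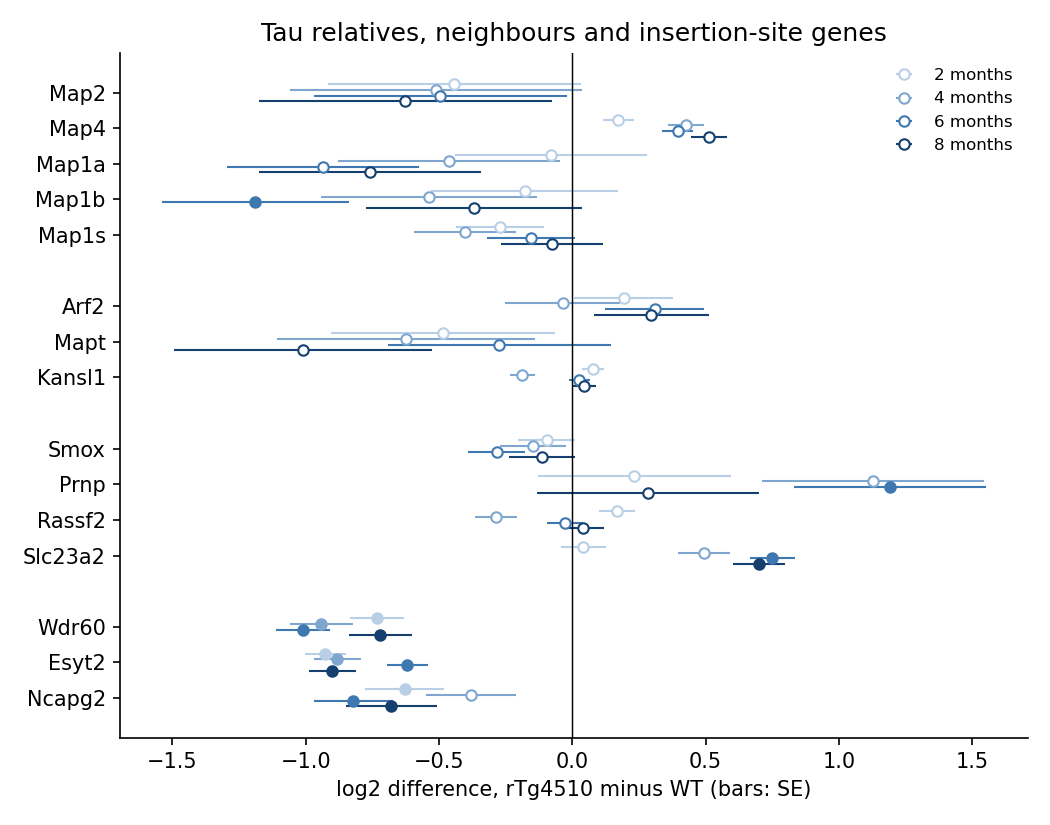
Difference in log2 signal, rTg4510 minus WT (x axis), for tau relatives and other microtubule-associated proteins, Mapt and Prnp with neighbouring genes, and the insertion-site genes (y axis). Points are the 4 ages from light to dark, bars are 1 SE of the limma fit and filled points were called. Wdr60, Esyt2 and Ncapg2 lie between -1.01 and -0.38, and Smox and Rassf2 lie between -0.29 and 0.17 where Prnp reaches 1.19.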

How the data were processed

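RNA of CD11b-isolated microglia was amplified (Ovation RNA-Seq System) and sequenced. The authors left out exons whose count stayed under 10 in over 80% of samples, combined exons by a robust linear model and deposited log2 gene signals, median normalised. The submitters' processing notes name GRCm38. The aligner and annotation are not given in the sources used here. Entrez numbers were matched to RefSeq symbols (95.9%).

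An 8-group linear model (limma 3.58.1, unmoderated variance, 20 residual degrees of freedom) gave all contrasts, with Benjamini-Hochberg adjustment over all genes. Permutation tests used scipy 1.17.1. The model was tested on simulated data. P-values measure only the spread between these libraries. Alternatives were moderated variances, all 32 libraries, quantile normalisation, a filter on low signals, a replicate block, the groups of 1 age alone and each library left out.

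The members and gene lists were chosen with earlier results of these data known. Named genes were the members, tau relatives with other microtubule-associated proteins, prion relatives and insertion-site genes. Also named were up to 4 called members of largest change in other lists, the 5 highest and 3 lowest correlations per member and 3 measured neighbours on each side. One correlated gene that this rule names is not reported here. Snap25, Syn1 and Adam9 were named, and the mean over the ages was chosen, after the values were seen. Deviations from group means of same-numbered libraries correlated at 0.0649 to 0.167 (2 months), -0.0999 to 0.124 (4 months), 0.131 to 0.153 (6 months) and 0.15 to 0.291 (8 months), so the numbers were taken to pair libraries at 6 and 8 months, from the data and not the labels.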

Additional observations from a re-analysis of the deposited data

Results flagged for a closer look

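Prnp minus Mapt in WT 6 months replicate 4 was 1.87, against 2.30 and 2.31 in the other libraries of its group. It lay further from its neighbour, relative to the range of the group, than Dixon's 95% limit for 4 samples. Over Mapt, Prnp, their difference and the neuron marker mean, 16 groups of 4 libraries were examined and 1 was found, where chance gives about 1 in 20. The other groups held 3 libraries and were not examined.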

How the results depend on the processing

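The depth behind the values is unknown, and only 3 or 4 libraries per group limit what can be called. Of 218 values under other settings 197 kept their direction and their side of the threshold, and of 1008 values with 1 library left out 935 did. Most of the results were not called to begin with, so these totals mainly count results that stayed uncalled. With 1 library left out, the averaged Mapt difference stayed called in 17 of 28 fits and Prnp in rTg4510 from 2 to 8 months in 20. The averaged Prnp difference stayed called in 27, and Prnp at 6 months in all 28. Prnp at 4 months (1.13) was called with moderated variances (limma, FDR = 0.0459), with only genes above the 25th percentile (limma, FDR = 0.0482) and in a fit of the 2 groups alone (limma, FDR = 0.0486). With all 32 libraries Prnp at 4 months fell in size to 0.29, Prnp at 6 months (1.19), Prnp in rTg4510 from 2 to 8 months (0.86), Prnp averaged over the ages (0.51) and the WT relation of neuron markers and Mapt (r = 0.52) were no longer called, the neuron marker difference at 4 months was (-0.61), and 3 uncalled changes with age turned sign, namely Mapt in WT from 2 to 4 months (0.15) and Prnp in rTg4510 from 2 to 4 (-0.15) and from 4 to 6 months (0.67). With quantile normalisation Prnp in rTg4510 from 2 to 8 months (1.11), Mapt averaged over the ages (-0.58) and the neuron markers at 6 months (-0.32) were no longer called, and the uncalled change of the Prnp genotype difference from 2 to 8 months turned sign (-0.079). The neuron marker difference at 2 months passed with only the 5 markers above the 25th percentile (-0.23), and Prnp and neuron markers in rTg4510 with deviations from group means (r = 0.68). With the replicate block, fitted at every age with a shared variance, Mapt at 8 months was called (-1.01). With the sign flips of paired libraries Prnp minus Mapt at 2 (0.72) and 6 months (1.47) and the neuron markers at 6 months (-0.57) could not pass, since 4 pairs go no lower than 0.125, and the block changed no other call on Mapt, Prnp or the neuron marker mean. With 1 library left out the values ranged as follows. Genotype differences of Prnp ran from 0.021 to 0.44 at 2 months, from 0.99 to 1.26 at 4 months, from -0.35 to 0.94 at 8 months and from 0.55 to 0.87 averaged over the ages, and those of Mapt from -0.63 to -0.31 at 2 months, from -1.05 to -0.32 at 4 months, from -0.45 to -0.13 at 6 months, from -1.36 to -0.41 at 8 months and from -0.70 to -0.45 averaged over the ages. Changes of the Mapt genotype difference ran from -0.57 to 0.17 (2 to 4 months) and from -0.87 to 0.077 (2 to 8 months), and of the Prnp genotype difference from -0.074 to 0.20 (4 to 6 months) and from -0.58 to 0.71 (2 to 8 months). Changes of Mapt with age ran in WT from -0.35 to 0.39 (2 to 4 months) and from -0.68 to 0.047 (4 to 6 months), and in rTg4510 from -0.44 to 0.045 (2 to 4), -0.13 to 0.35 (4 to 6), -0.091 to 0.86 (6 to 8) and -0.18 to 0.77 (2 to 8 months). Those of Prnp ran in WT from -0.29 to 0.0022 (2 to 4), 0.86 to 2.15 (6 to 8) and 0.43 to 1.71 (2 to 8 months), and in rTg4510 from 0.93 to 1.34 (2 to 8 months). Prnp minus Mapt ran from 0.55 to 0.85 at 2 months and from 1.31 to 1.63 at 6 months, and the neuron marker mean from -0.25 to 0.0067 at 2 months and from -0.65 to -0.44 at 6 months, where 4 against 3 libraries go no lower than p = 0.0571 in the exact test. Apart from these limits of the designs, the cause was not tested.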

Other observations

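The 4 libraries that the study excluded gave values outside the comparisons above. In rTg4510 4 months replicate 3 the Prnp signal was 4.78, lower than in each of the 28 kept libraries, while Mapt was 4.34. In WT 4 months replicate 3 Prnp was 7.0 and Mapt 5.73. In rTg4510 8 months replicate 4 Prnp was 7.66 and Mapt 5.59, and in WT 8 months replicate 4 they were 7.16 and 5.82.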
